A study of Mus musculus with 6 samples.

Results

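The 10 integrin subunit genes Itga8, Itga1, Itga5, Itga6, Itga7, Itga9, Itga11, Itgav, Itgb1 and Itgb3 were followed across 6 libraries of polyadenylated RNA from primary mouse cardiomyocytes, heart muscle cells taken into culture. They were found by their symbols, and all 10 were present among the 32245 symbols counted. The 10 genes were chosen with fold changes of these libraries known, and Itga8, which names the group, was selected on its own fold changes, higher in each of the 3 comparisons. Its values are therefore a description and carry no test. The 3 groups held 2 libraries each: phosphate-buffered saline (PBS), bone morphogenetic protein 2 (BMP2), and BMP2 with added dorsomorphin (BMP2+DM), a small molecule that inhibits type I BMP receptor kinases. All cells were of wild type genotype, the heart was the tissue of origin, and the study's own text calls the animals neonatal. The sources used here give no dose, time of treatment, strain or exact age. No group received dorsomorphin without BMP2, so a difference between BMP2+DM and the other groups cannot be split into an action on BMP2 signalling and any other action of the compound. Nothing in the labels ties the replicates to different cultures or mice, so the tests measure only the spread between these libraries, which may be technical.

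Integrins are receptors of paired alpha and beta subunits that span the cell membrane, hold the cell to proteins of the extracellular matrix and link them to the actin cytoskeleton inside. The alpha subunit largely sets the ligand. Alpha-5, alpha-8 and alpha-v each read the arginine-glycine-aspartate (RGD) motif in some of the proteins that carry it. Fibronectin, nephronectin and tenascin-C are among these proteins. Alpha-1 and alpha-11 bind collagens, and alpha-6 and alpha-7 bind laminins. Most of these alpha subunits pair with beta-1, the main beta subunit of heart muscle cells, and alpha-v also pairs with beta-3 and beta-5. Alpha-8, encoded by Itga8, pairs with beta-1. It is known for its part in kidney development, where its ligand is nephronectin, and for its presence in smooth muscle cells and fibroblasts.

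The upstream sequences of 3 members are shown because they stand for the main patterns described here: Itga8 was higher in both treated groups, Itgav was lower in both, and Itgb1 encodes the partner that these alpha subunits share. Each is the stretch of 250 bases before the RefSeq transcription start (GRCm38.p6), written 5′ to 3′ on the strand of the gene. Capitals mark the matches to the motifs described next, and all other bases are in lower case.
Itga8, chr2:12301945-12302194, minus strand: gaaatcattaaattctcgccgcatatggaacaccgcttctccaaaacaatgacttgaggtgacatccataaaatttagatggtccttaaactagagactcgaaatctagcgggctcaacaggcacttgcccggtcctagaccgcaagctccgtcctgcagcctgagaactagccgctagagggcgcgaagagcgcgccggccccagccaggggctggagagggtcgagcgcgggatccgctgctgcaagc
Itgav, chr2:83724147-83724396, plus strand: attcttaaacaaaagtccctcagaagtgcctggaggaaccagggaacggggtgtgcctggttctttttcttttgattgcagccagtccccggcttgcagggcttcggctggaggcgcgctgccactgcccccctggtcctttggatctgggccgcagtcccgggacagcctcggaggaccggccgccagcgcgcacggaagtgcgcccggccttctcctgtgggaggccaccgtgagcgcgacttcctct
Itgb1, chr8:128685404-128685653, plus strand: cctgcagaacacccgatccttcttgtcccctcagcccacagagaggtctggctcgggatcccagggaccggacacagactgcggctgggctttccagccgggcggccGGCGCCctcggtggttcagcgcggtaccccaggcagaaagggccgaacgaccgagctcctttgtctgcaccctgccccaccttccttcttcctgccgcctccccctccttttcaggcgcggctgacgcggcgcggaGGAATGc
The first coding stretch of Itga8 is shown too, because an opposite-strand gene model runs across it. It is the coding part of the first of 30 exons and is 206 bases long, with the start codon in capitals.
Itga8, chr2:12301577-12301782, minus strand: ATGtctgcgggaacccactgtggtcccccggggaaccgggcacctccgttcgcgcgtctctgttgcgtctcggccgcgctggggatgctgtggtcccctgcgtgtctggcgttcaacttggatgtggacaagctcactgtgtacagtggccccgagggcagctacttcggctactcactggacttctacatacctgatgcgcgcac
A promoter was found in the RefSeq table for 7 of the 10 members. Both strands were searched for the GC-rich SMAD motif GGCGCC, the TCF/LEF core CTTTGA, the TEAD motif GGAATG and the AP-1 motif TGANTCA, which share no match with one another in these windows. Among 32851 promoters of the same length, 9.59% held GGCGCC, 13.8% held CTTTGA, 12.6% held GGAATG and 6.75% held TGANTCA. The Itgb1 window held GGCGCC and GGAATG with 1 match each, the Itga1 window held 1 CTTTGA, and the windows of Itga8, Itgav, Itga5 and Itga11 held no match. The RefSeq window of Itga9 starts 104752 bases inside the gene as GENCODE annotates it, and is not read here as its upstream region. These are descriptions of letters and not of bound sites.

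Gene counts per library ranged from 10106667 to 14366042. The ribosomal-repeat gene models Gm42418 and AY036118 held 1.31% of the counts in PBS replicate 1 and 2.10% in BMP2 replicate 1, and between 0.0702% and 0.0928% in the other 4 libraries. Results are therefore also given without those 2 libraries where a call of a member depends on it. That fit leaves 1 library each for PBS and BMP2. In a call lost there, fewer libraries and the repeats cannot be told apart. With all libraries kept and library sizes taken without the repeat models, 969 genes were called higher and 1354 lower with BMP2 against PBS. The main fit gave 942 and 1335. Cardiomyocyte markers were abundant in every group: the level of Myh6, the alpha myosin heavy chain, was 13994 and 13912 CPM (reads scaled to library size) with PBS, 12228 and 12384 CPM with BMP2, and 13081 and 13074 CPM with BMP2+DM. Fibroblast and smooth muscle markers were abundant as well. Over all genes, 4.44% were called lower with BMP2+DM against BMP2 and 6.55% higher with BMP2 against PBS. Of 7 feedback genes of the BMP-SMAD pathway, 7 fell when dorsomorphin was added to BMP2. Among them, Smad6, an inhibitory SMAD, was at 141 and 163 CPM with PBS, 171 and 201 CPM with BMP2, and 44.8 and 52.5 CPM with BMP2+DM. With BMP2+DM against PBS, 6 of the 7 were called lower, beside 11.5% of all genes, so the level lay below that of PBS. With BMP2 against PBS, 3 of the 7 were called higher, and between 0 and 3 over 13 alternative analyses.

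Itga8 was low with PBS, higher with BMP2 and higher still with BMP2+DM. Its reads numbered 269 and 319 with PBS, 1124 and 1066 with BMP2, and 1653 and 1480 with BMP2+DM. Scaled to library size, its level was 19.2 and 27.7 CPM with PBS, 102 and 102 CPM with BMP2, and 159.9 and 144 CPM with BMP2+DM. No library of one group overlapped another group, and the 2 BMP2 libraries were nearly equal, whereas those of PBS and BMP2+DM lay further apart. The log2 fold change, with its standard error from the fit of all genes, was 2.13 ± 0.12 for BMP2 against PBS, which is a 4.38-fold higher level. It was 0.57 ± 0.11 for BMP2+DM against BMP2, 1.49-fold higher, and 2.70 ± 0.12 for BMP2+DM against PBS, 6.52-fold higher. Counted from the most positive value, these fold changes ranked 52nd, 870th and 18th among the 14378 genes tested. In bulk RNA, a change in the number of cells of a type and a change in RNA per cell cannot be told apart. The gene lies on chromosome 2, minus strand, at positions 12106632 to 12301922 (GRCm38).

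Smooth muscle cells and fibroblasts, the cells other than cardiomyocytes that are known to carry alpha-8, were followed by 12 markers each, and both lists held genes that rose and genes that fell. The summed level of the smooth muscle and pericyte markers, in which Acta2 weighs most, was 4490 to 4529 CPM with PBS, 2782 to 2805 CPM with BMP2 and 2805 to 2940 CPM with BMP2+DM. Of those 12 genes, 2 rose and 7 fell with BMP2 against PBS, beside 6.55% of all genes called higher and 9.29% lower, and over 13 alternatives 0 to 2 rose and 6 or 7 fell. Their median log2 fold change was −0.51 beside 0.0044 over all genes tested. Acta2, smooth muscle actin, was at 2085 and 2085 CPM with PBS, 1166 and 1157 CPM with BMP2, and 1290.1 and 1345 CPM with BMP2+DM. Des fell too, from 837 and 932 CPM with PBS to 461 and 537 CPM with BMP2. Mcam fell from 188 and 189 CPM to 93.1 and 104 CPM in the same comparison. The 2 that rose were Kcnj8 and Abcc9, the pore and regulatory subunits of a potassium channel found in pericytes, of which Abcc9 is also known from heart muscle cells. Both were picked for naming after their values were seen. Kcnj8 was at 0.428 and 1.04 CPM with PBS, 2.54 and 4.39 CPM with BMP2, and 2.90 and 5.34 CPM with BMP2+DM. Its log2 fold change with BMP2 was 2.25 ± 0.55 (adjusted p = 0.00824), not called without PBS replicate 1 (adjusted p = 0.118), BMP2 replicate 2 (adjusted p = 0.107) or both repeat-rich libraries (adjusted p = 0.16). Abcc9 went up in the order of Itga8, from 100.5 and 109.6 CPM to 135 and 121 CPM and to 171 and 167 CPM. Its steps were 0.28 ± 0.08 with BMP2 (adjusted p = 0.0166) and 0.40 ± 0.08 with dorsomorphin added (adjusted p = 0.00211). The first was not called without PBS replicate 1 (adjusted p = 0.17), BMP2 replicate 1 (adjusted p = 0.193) or both repeat-rich libraries (adjusted p = 0.538), and the second not without BMP2 replicate 2 (adjusted p = 0.0518).

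The summed level of the 12 fibroblast markers, in which the collagens Col1a1, Col1a2 and Col3a1 weigh most, was 11407 to 12119 CPM with PBS, 11279 to 11530 CPM with BMP2 and 10358 to 10830 CPM with BMP2+DM. With BMP2 against PBS, 2 of the 12 rose and 5 fell, and over 13 alternatives 1 or 2 rose and 2 to 5 fell. Over all genes, 6.55% were called higher and 9.29% lower in that comparison. Of the 5 that fell, Thy1 and Pdgfra had the smallest p. Thy1 was at 176 and 175 CPM with PBS, 80.1 and 79.1 CPM with BMP2, and 97.0 and 93.6 CPM with BMP2+DM. Pdgfra was at 217 and 209 CPM, 154 and 139 CPM, and 107 and 119 CPM in the same order of groups. The 2 markers that rose, again named after their values were seen, were Col3a1, a chain of collagen III, and Dpt, the matrix protein dermatopontin. Col3a1 went up in the order of Itga8, from 1764 and 1899 CPM with PBS to 2582 and 2728 CPM with BMP2 and 3690 and 3935 CPM with BMP2+DM. It rose in both steps, by 0.54 ± 0.05 (adjusted p = 6.09e-07) and 0.52 ± 0.05 (adjusted p = 2.15e-06). With BMP2+DM against BMP2, 3 of the 12 fibroblast markers rose and 4 fell, beside 4.28% of all genes called higher and 4.44% lower. Dpt was at 39.8 and 41.9 CPM, 65.7 and 54.9 CPM, and 76.1 and 73.5 CPM in the same order of groups. It rose with BMP2 (0.56 ± 0.11, adjusted p = 0.0014), though not without both repeat-rich libraries (0.39, adjusted p = 0.217), and its second step of 0.31 ± 0.11 did not pass (adjusted p = 0.0842). None of the markers in these 2 lists was at 0 in any library. Epicardial markers summed to 243 to 251 CPM with PBS, 154 to 162 CPM with BMP2 and 169.5 to 188 CPM with BMP2+DM. Endothelial markers summed to 432 to 442 CPM, 394 CPM in both libraries, and 254 to 269 CPM, in the same order of groups. The 10 leukocyte markers summed to between 63.0 and 95.3 CPM, and Ptprc, the common leukocyte antigen, was at 0.522 CPM or less in every library. The part of these other cell types in the level of Itga8 was not tested.

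**Figure D1:**
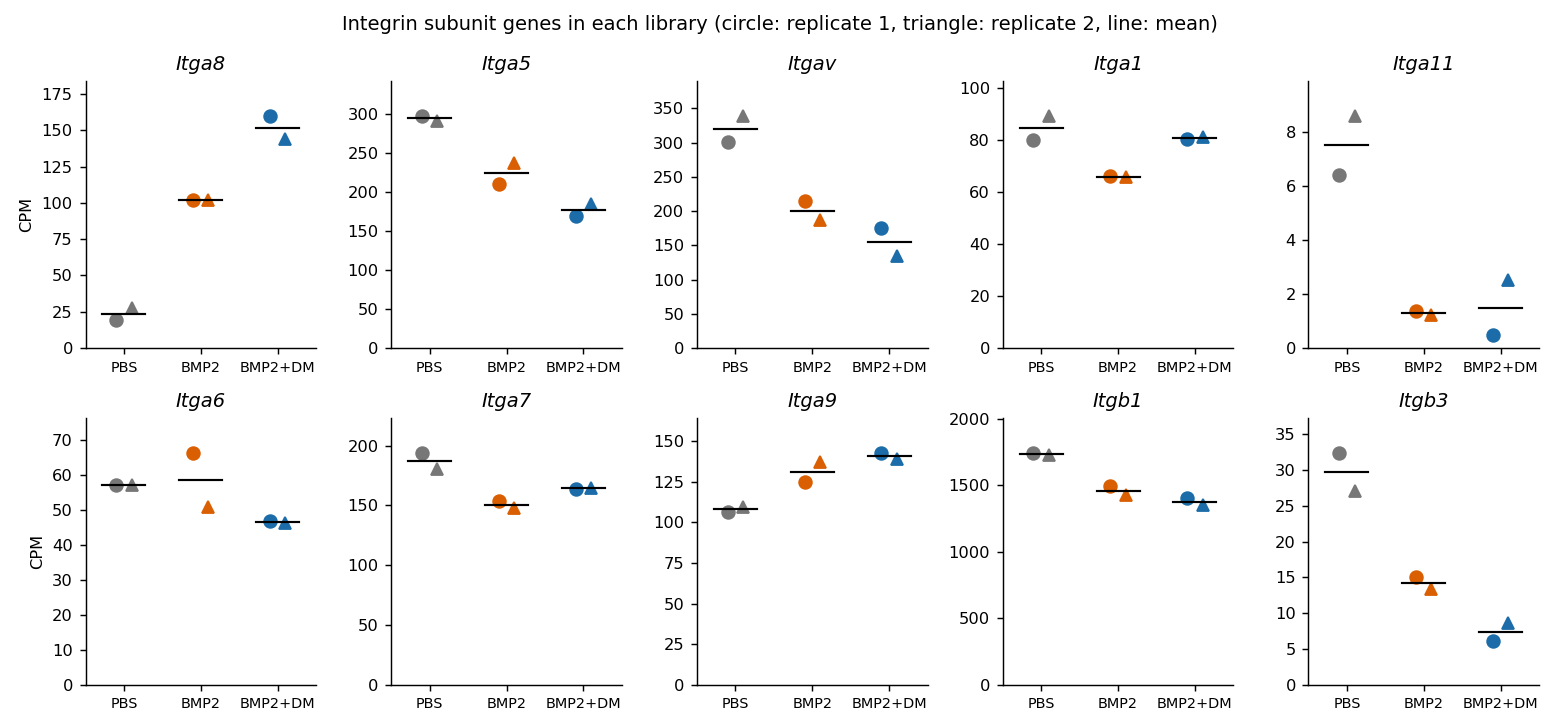
Level of each of the 10 integrin subunit genes in CPM in every library, on a linear axis that starts at 0 for each gene; circles are replicate 1, triangles replicate 2 and lines the mean of 2 libraries. Itga8 steps up from 19.2 and 27.7 CPM with PBS to 159.9 and 144 CPM with BMP2+DM, while Itga5, Itgav and Itgb3 step down.

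The other 2 alpha subunits of the RGD-binding class that were abundant went the opposite way. Itga5, the classical fibronectin receptor subunit, was at 298 and 292 CPM with PBS, 211 and 238 CPM with BMP2, and 169.8 and 184 CPM with BMP2+DM. The groups did not overlap and each step was downward. Its log2 fold change was −0.39 ± 0.06 for BMP2 against PBS (adjusted p = 0.000286) and −0.34 ± 0.07 for BMP2+DM against BMP2 (adjusted p = 0.00264). Without BMP2 replicate 2 the second step was −0.25 and missed the threshold (adjusted p = 0.0738), and without both libraries rich in ribosomal repeats the first was −0.30 (adjusted p = 0.14).

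Itgav, the alpha subunit of the vitronectin receptors that also act on latent TGF-beta, was at 301 and 339 CPM with PBS, 214 and 187 CPM with BMP2, and 175 and 135 CPM with BMP2+DM. Again the groups did not overlap, though the 2 libraries of each group lay further apart than for Itga5. Itgav fell with BMP2 by 0.67 ± 0.09 on the log2 scale (adjusted p = 5.79e-05). It fell again with BMP2+DM against BMP2, by 0.37 ± 0.10 (adjusted p = 0.0205). This second call was lost without BMP2 replicate 1 (−0.27, adjusted p = 0.225), without BMP2+DM replicate 2 (−0.19, adjusted p = 0.237), without both repeat-rich libraries (−0.27, adjusted p = 0.394) and with DESeq2 (adjusted p = 0.298). Against PBS, BMP2+DM lowered Itga5 by 0.74 ± 0.07 (adjusted p = 1.96e-07) and Itgav by 1.04 ± 0.10 (adjusted p = 2.68e-07). Itga2b, the platelet subunit and the remaining RGD-binding alpha gene, stayed between 0.777 and 3.13 CPM with overlapping groups.

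These opposite movements changed the make-up of the alpha subunit transcripts. Levels were divided by exon length, as CPM per kilobase, so that genes could be compared, and summed over the 18 alpha subunit genes. The sum was 156 and 161 CPM per kilobase with PBS, 132 and 135 with BMP2, and 133 and 129.8 with BMP2+DM. Itga8 held 2.01% ± 0.476 of that sum with PBS (SD, n = 2), 10.3% ± 0.195 with BMP2 and 15.7% ± 0.928 with BMP2+DM. The share of Itga5 was 37.8%, 34.0% and 27.3% in the same order, and that of Itgav 18.8%, 13.99% and 11.0%. Itga7, a laminin-binding subunit, kept between 13.9% and 15.5%, and Itga9 held 8.86%, 12.7% and 13.9%. Within the 4 RGD-binding alpha genes alone, Itga8 held 2.86% and 3.96% with PBS, 18.1% and 17.3% with BMP2, and 29.8% and 28.04% with BMP2+DM. With the longest transcript in place of all exons as the length, the share of Itga8 among 18 alpha genes was 1.83%, 9.50% and 14.3%. Itga8 was the gene chosen for its change, so its shares are a description too.

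**Figure D2:**
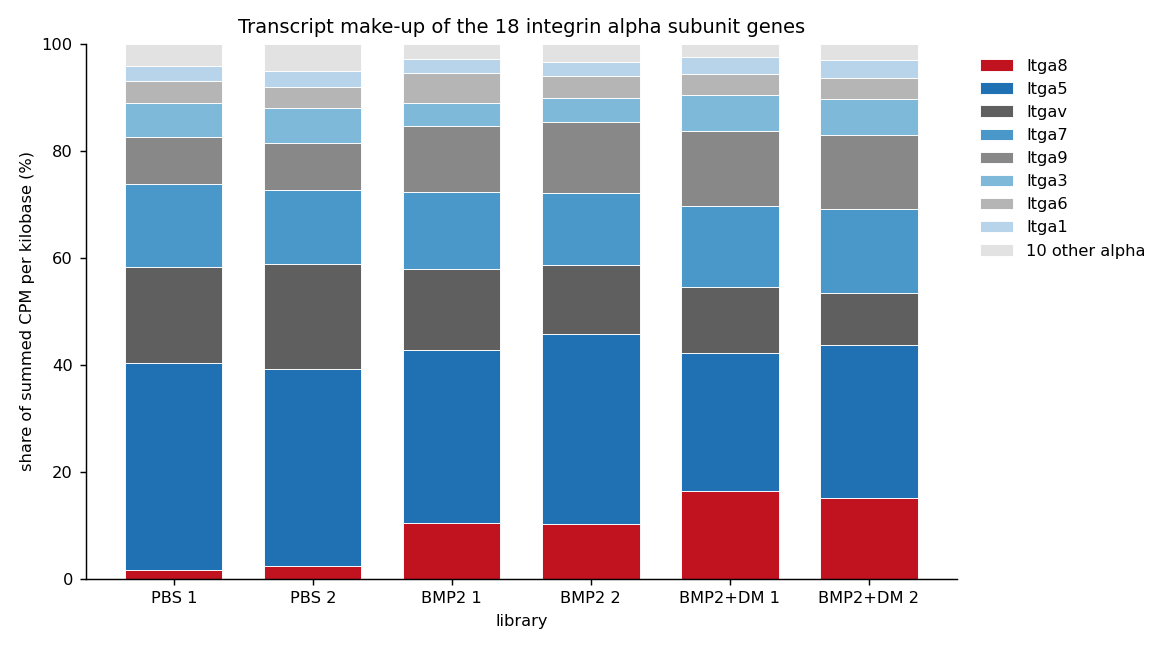
Share of the summed CPM per kilobase of 18 integrin alpha subunit genes held by each gene, in percent, 1 bar per library. The red segment of Itga8 at the foot of each bar grows from a mean of 2.01% with PBS to 10.3% with BMP2 and 15.7% with BMP2+DM, while the dark blue segment of Itga5 shrinks from 37.8% to 27.3%.

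In order of level per kilobase of all exons among the 26 integrin genes, Itgb1, Itgb5 and Itga5 were the 3 highest in each group, without overlap between neighbours. With PBS, Itga8 was in place 11 at 3.19 CPM per kilobase, and its range overlapped that of the gene after it, Itga4. With BMP2 it was in place 7 at 13.8 CPM per kilobase, below Itga9 and above Itga6 without overlap. With BMP2+DM it was in place 4 at 20.6 CPM per kilobase, and its range of 19.5 to 21.7 covered that of Itga7, the next gene. Itgav moved from place 4 with PBS, at 29.8 CPM per kilobase, to place 7 with BMP2+DM, at 14.4 CPM per kilobase. The order depended in part on the length used. Per kilobase of the longest transcript, Itga8 was in place 12 with PBS, 7 with BMP2 and 5 with BMP2+DM. In that last group Itga7, at 40.7 and 41.0 CPM per kilobase, overlapped Itga5, at 38.4 and 41.7, and both lay above Itga8, at 27.5 and 24.7, without overlap. Itga8 then overlapped Itgav, the next gene.

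The collagen-binding members differed from each other. Itga1 was at 80.0 and 89.2 CPM with PBS, 66.0 and 65.6 CPM with BMP2, and 80.3 and 81.0 CPM with BMP2+DM. The 2 BMP2 libraries were the lowest, and the BMP2+DM libraries lay within the range of PBS. Itga1 fell with BMP2 by 0.36 ± 0.09 on the log2 scale (adjusted p = 0.0103). The difference of 0.29 ± 0.09 between BMP2+DM and BMP2 did not pass (adjusted p = 0.0577), but did without a filter on low counts (adjusted p = 0.0363). The fall was not called without PBS replicate 2 (−0.28, adjusted p = 0.135), BMP2 replicate 1 (−0.36, adjusted p = 0.0598) or BMP2 replicate 2 (−0.36, adjusted p = 0.0645). It was not called either without both repeat-rich libraries (−0.44, adjusted p = 0.105).

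Itga11, a collagen receptor subunit known from fibroblasts, was among the lowest members, with 90 and 99 reads with PBS, 15 and 13 with BMP2, and 5 and 26 with BMP2+DM. That is 6.43 and 8.61 CPM, 1.36 and 1.24 CPM, and 0.484 and 2.52 CPM. The treated libraries were all below the PBS libraries, and the 2 treated groups overlapped. Itga11 fell with BMP2 by 2.52 ± 0.49 on the log2 scale (adjusted p = 0.00138) and was lower with BMP2+DM against PBS by the same test (−2.31 ± 0.48, adjusted p = 0.00193). Without both repeat-rich libraries the fall with BMP2 was −2.78 (adjusted p = 0.133) and that with BMP2+DM −2.51 (adjusted p = 0.0524), neither called. The value for BMP2+DM against PBS was −1.57 without BMP2+DM replicate 1 and −3.92 without BMP2+DM replicate 2. The difference between the treated groups was 0.21 ± 0.57 (adjusted p = 0.883). It turned to −1.41 without BMP2+DM replicate 2, which held the 26 reads. Itga2 and Itga10, the other 2 collagen-binding genes, were at 1.36 to 5.48 CPM and were called in no comparison by edgeR.

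Among the laminin-binding members, Itga7 is the main laminin receptor subunit of striated muscle. It was at 194 and 181 CPM with PBS, 153 and 147 CPM with BMP2, and 164 and 165 CPM with BMP2+DM. Both treated groups lay below PBS without overlap. Its log2 fold change was −0.32 ± 0.07 with BMP2 (adjusted p = 0.00239), and −0.29 without both repeat-rich libraries (adjusted p = 0.152). With BMP2+DM it was 0.13 ± 0.07 against BMP2 (adjusted p = 0.285) and −0.19 ± 0.07 against PBS (adjusted p = 0.0463). That last call, close to the threshold, was lost on leaving out any 1 library, with values from −0.24 to −0.14 and adjusted p from 0.0541 to 0.287.

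Itga6, known from epithelial and endothelial cells, was at 57.1 and 57.0 CPM with PBS, 66.3 and 50.8 CPM with BMP2, and 46.9 and 46.1 CPM with BMP2+DM. The BMP2 libraries fell on both sides of PBS, and the BMP2+DM libraries were the lowest 2. Its log2 fold changes were 0.04 ± 0.12, −0.33 ± 0.12 and −0.29 ± 0.12 for BMP2 against PBS, BMP2+DM against BMP2 and BMP2+DM against PBS, and none passed (adjusted p = 0.875, 0.105 and 0.0965). The first turned to −0.17 without BMP2 replicate 1. The second passed without BMP2 replicate 2 (−0.51, adjusted p = 0.0255) and without a filter on low counts (adjusted p = 0.0484). Itga3, the remaining laminin-binding gene and no member, was at 57.1 and 58.9 CPM with PBS, 33.0 and 33.9 CPM with BMP2, and 50.8 and 49.6 CPM with BMP2+DM. It fell with BMP2 (−0.80 ± 0.11, adjusted p = 4.47e-05) and rose when dorsomorphin was added (0.59 ± 0.11, adjusted p = 0.00205). Without both repeat-rich libraries that rise was 0.57 and not called (adjusted p = 0.103).

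Itga9, whose subunit binds tenascin-C, osteopontin and other ligands without needing RGD, was at 106 and 109.6 CPM with PBS, 125 and 137 CPM with BMP2, and 143 and 139 CPM with BMP2+DM. It was the single member besides Itga8 with a higher call. The groups did not overlap, and PBS was lowest. Itga9 rose with BMP2 by 0.28 ± 0.07 on the log2 scale (adjusted p = 0.0145) and was higher with BMP2+DM than with PBS by 0.39 ± 0.07 (adjusted p = 0.00103). The 2 treated groups differed by 0.10 ± 0.07, which did not pass (adjusted p = 0.458). The rise with BMP2 was not called without PBS replicate 1 (0.26, adjusted p = 0.108), PBS replicate 2 (0.30, adjusted p = 0.0575), BMP2 replicate 2 (0.21, adjusted p = 0.18) or both repeat-rich libraries (0.32, adjusted p = 0.15). Its closest relative Itga4, which encodes a receptor subunit for fibronectin and VCAM-1, went down: 41.3 and 45.4 CPM with PBS, 24.3 and 24.2 CPM with BMP2, and 18.96 and 17.8 CPM with BMP2+DM. Itga4 fell with BMP2 by 0.84 ± 0.13 (adjusted p = 0.000184).

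Of the beta subunits, Itgb1 had the highest level per kilobase in every group. It was at 1747 and 1729 CPM with PBS, 1496 and 1427 CPM with BMP2, and 1402.5 and 1354 CPM with BMP2+DM. The groups did not overlap, and each was lower than the one before. Itgb1 fell with BMP2 by 0.25 ± 0.05 on the log2 scale (adjusted p = 0.00192), and its difference of −0.08 ± 0.05 between BMP2+DM and BMP2 did not pass (adjusted p = 0.353). Against PBS, BMP2+DM was lower by the same test (−0.33 ± 0.05, adjusted p = 8.89e-05). Per kilobase, Itgb1 made up 83.4% of the summed level of 8 beta subunit genes with PBS, 86.0% with BMP2 and 88.0% with BMP2+DM. Even with BMP2+DM, the level of Itgb1 was 338 CPM per kilobase beside 20.6 for Itga8.

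Itgb3, which pairs with alpha-v in the vitronectin receptor, fell in both steps. Its level was 32.4 and 27.1 CPM with PBS, 15.1 and 13.4 CPM with BMP2, and 6.09 and 8.64 CPM with BMP2+DM, from 454 and 311 reads down to 63 and 89. No 2 groups overlapped. The log2 fold change was −1.07 ± 0.18 with BMP2 (adjusted p = 0.000355) and −0.95 ± 0.20 with BMP2+DM against BMP2 (adjusted p = 0.00605). Against PBS, BMP2+DM gave −2.01 ± 0.19, a 4.04-fold lower level (adjusted p = 4.98e-07). The second step was not called without BMP2 replicate 1 (−0.86, adjusted p = 0.0595) or BMP2+DM replicate 1 (−0.72, adjusted p = 0.0693). Without both repeat-rich libraries, the first was −1.02 (adjusted p = 0.0993) and the second −0.86 (adjusted p = 0.174). Itgb5, no member and another known beta partner of alpha-v, was at 270.0 and 269 CPM with PBS, 189 and 189 CPM with BMP2, and 145 and 151 CPM with BMP2+DM. It fell with BMP2 (−0.51 ± 0.06, adjusted p = 5.54e-06) and again with BMP2+DM against BMP2 (−0.35 ± 0.06, adjusted p = 0.00092), the second not without both repeat-rich libraries (−0.35, adjusted p = 0.0751).

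**Figure D3:**
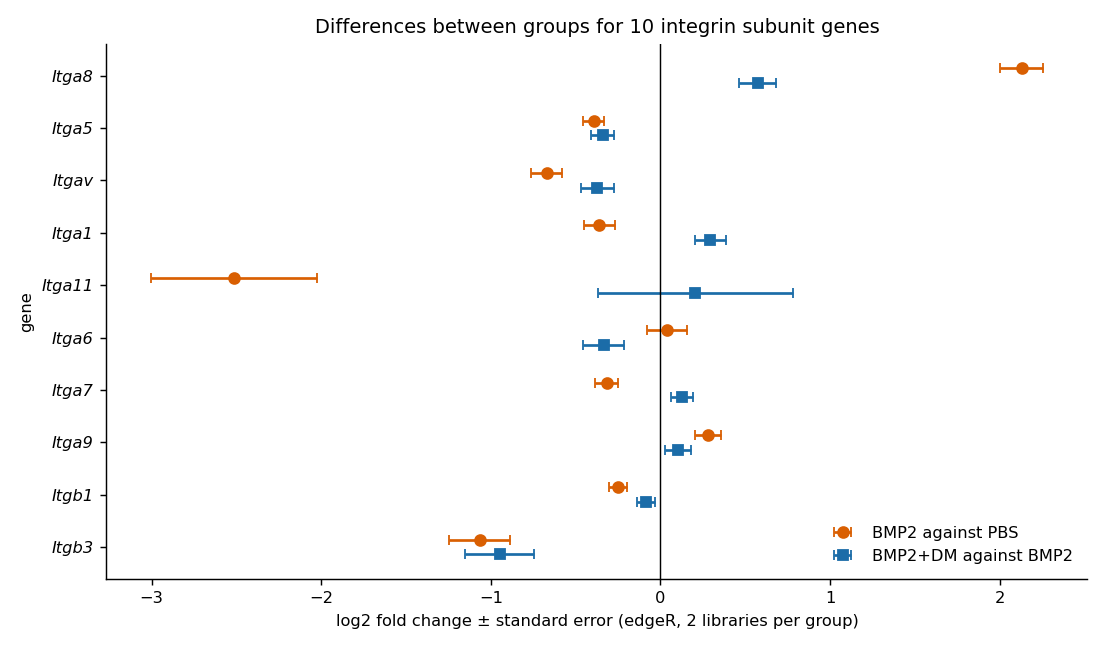
Log2 fold change of the 10 genes with its standard error from edgeR, for BMP2 against PBS (circles) and BMP2+DM against BMP2 (squares), which share the 2 BMP2 libraries. Itga8 stands at 2.13 and 0.57, Itgb3 at −1.07 and −0.95, and Itga1 lies on opposite sides of 0 at −0.36 and 0.29.

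Counted together, 1 of the 9 members other than Itga8 rose with BMP2 against PBS, 7 fell and 1 was not called. Over all 14378 genes tested, 15.8% were called in that comparison, 6.55% higher and 9.29% lower. The median log2 fold change of the 9 was −0.36, beside 0.0044 over all genes. Leaving out both repeat-rich libraries left 2 members called, Itgav and Itgb1, both lower. With BMP2+DM against BMP2, 3 of the 9 fell and 6 were not called, beside 8.73% of all genes called, 4.28% higher and 4.44% lower. No member other than Itga8 was called higher there by edgeR with the filter on low counts or by DESeq2. Itga1 was higher at an unadjusted p under 0.05, and was called by edgeR without that filter (adjusted p = 0.0363). The median was −0.08, beside 0.00035 over all genes. The count of 3 became 1 without BMP2 replicate 1 and 1 without both repeat-rich libraries. With BMP2+DM against PBS, 1 rose, 6 fell and 2 were not called, beside 20.9% of all genes called, 9.38% higher and 11.5% lower, and the median was −0.33. The 3 comparisons share libraries, so their values are not independent of each other, and the members were picked with results of these libraries known.

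Among the 16 other integrin genes, 11 passed the filter on low counts, and Itgad, Itgae, Itgal, Itgax and Itgb7 did not. With BMP2 against PBS 4 of the 11 fell, namely Itga3, Itga4, Itgb2 and Itgb5, and 7 were not called. Over all genes, 9.29% were called lower in that comparison. Itgb2, the shared beta subunit of leukocyte integrins, had a low level of 1.60 CPM on average with BMP2+DM. Its fall with BMP2 (−1.62 ± 0.50, adjusted p = 0.0328) was not called without PBS replicate 1 (−1.16, adjusted p = 0.36), BMP2 replicate 1 (−1.43, adjusted p = 0.172) or BMP2 replicate 2 (−1.84, adjusted p = 0.0844). With BMP2+DM against BMP2, Itga3 rose and Itgb5 fell, beside 4.28% of all genes called higher and 4.44% lower. With BMP2+DM against PBS, Itga4, Itgb5 and Itgb6 fell, Itgb6 by 0.72 ± 0.22 on the log2 scale (adjusted p = 0.0267). Over all genes, 11.5% were called lower there. The call of Itgb6, which encodes an epithelial partner of alpha-v, was lost without PBS replicate 2 (−0.58, adjusted p = 0.198), BMP2+DM replicate 1 (−0.61, adjusted p = 0.142), or BMP2+DM replicate 2 (−0.83, adjusted p = 0.0502).

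Of 20 listed genes of ligands of RGD-binding integrins, 14 passed the filter. With BMP2 against PBS 2 of them rose and 8 fell (median −0.35), beside 6.55% of all genes called higher and 9.29% lower. With BMP2+DM against BMP2 2 rose and 7 fell (median −0.24), beside 4.28% and 4.44%. With BMP2+DM against PBS 2 rose and 11 fell (median −0.41), beside 9.38% and 11.5%. Without PBS replicate 1 the last counts were 0 and 8, and without both repeat-rich libraries those for BMP2 against PBS were 1 and 5. Npnt, nephronectin, the ligand best known for alpha-8, was at 61.2 and 61.5 CPM with PBS, 39.0 and 38.2 CPM with BMP2, and 30.1 and 22.8 CPM with BMP2+DM. So the transcript of this ligand was lowest in the group where Itga8 was highest. The same held for Fn1, Tnc and Ccn2, described below, but not for Postn or Tgfb3. Npnt fell with BMP2 by 0.67 ± 0.13 (adjusted p = 0.000996) and with BMP2+DM against BMP2 by 0.54 ± 0.13 (adjusted p = 0.0153). The second call was lost without BMP2 replicate 1 (−0.53, adjusted p = 0.0909), BMP2 replicate 2 (−0.56, adjusted p = 0.0691) or BMP2+DM replicate 2 (−0.36, adjusted p = 0.182). Without both repeat-rich libraries neither step of Npnt was called (adjusted p = 0.13 and 0.237).

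Fn1, fibronectin, the classical RGD protein of the matrix, was at 6203 and 6413 CPM with PBS, 4974 and 5049.6 CPM with BMP2, and 3891 and 4057 CPM with BMP2+DM. It fell in both steps by the same amount within error, −0.33 ± 0.04 and −0.33 ± 0.04 (adjusted p = 5.42e-06 and 1.31e-05). Tnc, tenascin-C, a ligand shared by alpha-8, alpha-v and alpha-9, fell slightly with BMP2 (−0.37 ± 0.05, adjusted p = 0.000108) and further with dorsomorphin (−1.05 ± 0.06, adjusted p = 1.41e-09). Its level was 504 and 567 CPM with PBS, 414 and 415 CPM with BMP2, and 194 and 206 CPM with BMP2+DM. Ccn2, the matricellular connective tissue growth factor, went from 1362 and 1389 CPM with PBS to 521 and 513 CPM with BMP2+DM. Postn, periostin, moved the other way with BMP2, from 1586 and 1727 CPM to 2705 and 2637 CPM (0.69 ± 0.05, adjusted p = 2.58e-08). It was at 1825 and 1856 CPM with BMP2+DM, lower than with BMP2 (−0.54 ± 0.05, adjusted p = 1.69e-06). That level was still called higher than with PBS by the same test (0.15 ± 0.05, adjusted p = 0.0403). Tgfb3, whose latent form carries an RGD motif, was at 131 and 116 CPM, 68.3 and 63.8 CPM, and 88.9 and 97.6 CPM in the order PBS, BMP2 and BMP2+DM.

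Of 16 listed genes of basement membrane ligands, among them laminins, nidogens and collagen IV, 14 were tested. With BMP2 against PBS 2 rose and 6 fell (median −0.30), beside 6.55% of all genes called higher and 9.29% lower. Both counts were smaller without PBS replicate 2 or without both repeat-rich libraries, fits that leave 1 library in a group. The 2 that rose were Lamb2, at 226 and 221 CPM with PBS and 264 and 257 CPM with BMP2, and Lama3. Lama3 was near the floor, at 0 and 0.174 CPM with PBS and 0.273 and 2.77 CPM with BMP2, so its rise rested mostly on 1 library. When dorsomorphin was added to BMP2, 4 rose and 10 were not called (median 0.02), beside 4.28% of all genes called higher and 4.44% lower. Without BMP2 replicate 1 or without BMP2+DM replicate 2 that count of 4 became 1, and without BMP2 replicate 2 it became 2. Nid1, nidogen-1, which ties laminin to collagen IV, was at 704 and 735 CPM with PBS, 472 and 475 CPM with BMP2, and 445 and 427 CPM with BMP2+DM. It fell with BMP2 by 0.60 ± 0.05 (adjusted p = 9.55e-08). Nid2, nidogen-2, rose with dorsomorphin, from 145 and 153 CPM with BMP2 to 244 and 239 CPM (0.70 ± 0.06, adjusted p = 1.08e-06). Col4a1 and Lamb1, a collagen IV and a laminin chain, fell with BMP2 by 0.43 ± 0.05 and 0.35 ± 0.05.

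Adaptor proteins connect integrin tails to actin inside the cell. Beside 6.55% of all genes called higher and 9.29% lower with BMP2 against PBS, 2 rose and 18 fell of 33 tested adaptor genes (median −0.29). The list held 34. Without BMP2 replicate 1 these counts were 1 and 12, and without both repeat-rich libraries 1 and 8. With BMP2+DM against BMP2, 3 rose and 5 fell (median −0.05), beside 4.28% and 4.44% of all genes. Against PBS, 17 fell with BMP2+DM (median −0.35), beside 11.5% of all genes called lower. The counts of 3 and 5 were 2 and 3 without PBS replicate 2, 0 and 3 without BMP2 replicate 1, 1 and 3 without BMP2 replicate 2 or BMP2+DM replicate 2, and 0 and 1 without both repeat-rich libraries. Actn1, the actin cross-linker alpha-actinin-1, was at 857 and 862 CPM with PBS, 603 and 599 CPM with BMP2, and 475 and 478 CPM with BMP2+DM. It fell in both steps, by 0.52 ± 0.05 (adjusted p = 6.45e-07) and 0.34 ± 0.05 (adjusted p = 0.000207). Ilk, integrin-linked kinase, fell with BMP2 by 0.48 ± 0.06 (adjusted p = 6.3e-06), from 289 and 296 CPM to 206 and 213 CPM, and was at 204 and 199 CPM with BMP2+DM. Actn4 and Tns3, a second actinin and a tensin, fell with BMP2 by 0.52 ± 0.05 and 0.56 ± 0.06. Parvb, beta-parvin, a binding partner of integrin-linked kinase, rose with BMP2 (0.65 ± 0.08, adjusted p = 2.54e-05) and fell when dorsomorphin was added (−0.52 ± 0.08, adjusted p = 0.000592), the fall not without both repeat-rich libraries (−0.50, adjusted p = 0.0563). Its level with BMP2+DM, 74.5 and 77.8 CPM, was near the 68.9 and 70.5 CPM of PBS. Of the 12 cardiomyocyte markers, 10 also fell with BMP2 against PBS, beside 9.29% of all genes called lower. When dorsomorphin was added to BMP2, 3 of these markers rose and 0 fell, beside 4.28% of all genes called higher and 4.44% lower. Their summed level was 27779 to 28141 CPM with PBS, 23408 to 23638 CPM with BMP2 and 25281 to 25493 CPM with BMP2+DM. The part of these markers in the changes of integrin and adaptor genes was not tested.

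Genes whose pattern was most like that of Itga8 were sought among 11081 tested genes with a mean log2 CPM of at least 2. Members and gene models with symbols of the Gm, Rik, AY0 and AC kinds were left out, so E030013I19Rik, described below, was not ranked. The measure was the root-mean-square difference of log2 CPM over the 6 libraries after centring each gene on its mean. Itih5, an inter-alpha-trypsin inhibitor heavy chain family member secreted into the matrix, was nearest, with a difference of 0.13. Its level was 16.1 and 18.5 CPM with PBS, 80.7 and 84.5 CPM with BMP2, and 107 and 109 CPM with BMP2+DM. Mtfp1, a mitochondrial fission protein gene, followed at 0.28, and Ccdc80, a matrix protein gene, at 0.37. Ccdc80 was at 81.7 and 84.7 CPM with PBS and 299.7 and 324 CPM with BMP2+DM. Nkd1, an inhibitor of Wnt signalling, came next at 0.38, and Peg10, an imprinted gene of retrotransposon origin, at 0.42. The 2 steps of Nkd1 were of more equal size than those of Itga8: its log2 fold change was 1.49 with BMP2 and 1.38 with dorsomorphin added. No test belongs to this ranking, which was made on the same libraries that chose Itga8.

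An opposite-strand gene model, E030013I19Rik, overlaps the start of Itga8. It was singled out after its values were seen. The annotation places it on the plus strand of chromosome 2 from 12300946 to 12312315 as an antisense RNA. It shares 372 exonic bases with Itga8, which is 5.05% of the Itga8 exons and 9.87% of its own, between 12300946 and 12301922. This span holds the whole first exon of Itga8 (12301577 to 12301922), so the coding stretch printed above lies in it, and the printed upstream window lies in an exon of the opposite-strand model (12300946 to 12302285). Its reads numbered 15 and 25 with PBS, 88 and 92 with BMP2, and 130 and 127 with BMP2+DM. They equalled 5.58% to 8.63% of the Itga8 reads in the same library. The model thus followed Itga8 from group to group, with log2 fold changes of 2.39 ± 0.31, 0.57 ± 0.25 and 2.96 ± 0.31. The sources used here do not say whether counting used the strand, so reads from the 2 genes cannot be told apart where they overlap. Reads assigned to no gene made up 49.7% to 50.1% of each library total, and ambiguous reads 0.133% to 0.138%. Whether reads counted for the model came from transcripts of Itga8 was not tested. For comparison, the opposite-strand model Gm13684, which covers 5.90% of the Itgav exons, had between 0 and 7 reads per library.

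**Figure D4:**
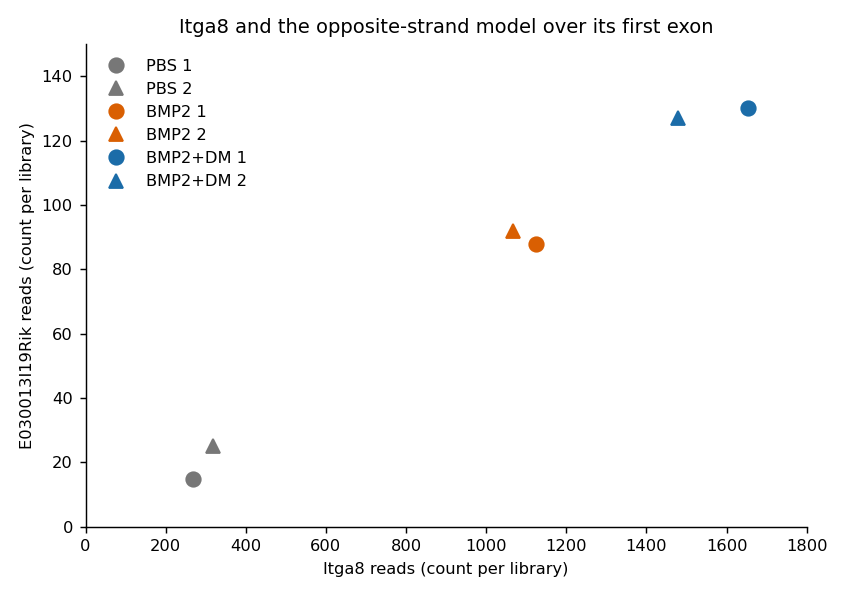
Reads of the opposite-strand model E030013I19Rik (vertical axis) against reads of Itga8 (horizontal axis), 1 point per library, with colour for the group and shape for the replicate. The PBS libraries lie lowest at 15 and 25 reads of the model, BMP2 at 88 and 92, and BMP2+DM at 130 and 127.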

How the data were processed

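The files deposited by the authors hold raw counts of reads for each gene symbol. The submitters' processing notes name mm10, FastQC and Trimmomatic, STAR, HTSeq and also DESeq2, without versions. The annotation and strand setting used are not given in the sources here. Summary lines that name no gene (53.8% to 54.2% of each total) were left out. Groups came from the labels. All 6 libraries were fitted together by group with edgeR 4.0.16 in R 4.3.3 (TMM factors, quasi-likelihood F test, 3 residual degrees of freedom). The filterByExpr filter (minimum count 10, minimum total 15) left 14378 genes. P-values were adjusted by Benjamini-Hochberg over all of them, with a threshold of 0.05. Standard errors were computed as the size of the log2 fold change over the root of F. CPM use TMM library sizes; CPM per kilobase divide by the union of exons in GENCODE vM21 (GRCm38), where 97.66% of symbols were found. Replicates differed by more than sampling noise (chi-square per degree of freedom 13.6 with PBS, 17.5 with BMP2 and 3.88 with BMP2+DM). These values include the ribosomal-repeat models, which were uneven between the replicates of PBS and of BMP2, and their part was not separated. The script was tested on simulated data. The 10 members, the gene lists and the rule for named genes (all members, tested integrin genes, up to 4 genes per list with the smallest p, 5 genes nearest to Itga8) were chosen with earlier results of these data known. The naming of cell type markers did not hold to that rule. Kcnj8, Abcc9, Col3a1 and Dpt, which rose with BMP2, were picked after their values were seen. Alternatives were RLE factors, DESeq2 1.42.0, no filter, only the groups compared, leaving out libraries, a replicate block, library sizes without ribosomal-repeat models, and another gene length. Their use on lists and on genes that are not members was chosen after seeing the data.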

Additional observations from a re-analysis of the deposited data

How the results depend on the processing

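Over 13 alternatives, Itga8 kept its direction, with log2 fold changes of 1.87 to 2.41 for BMP2 against PBS, 0.49 to 0.65 for BMP2+DM against BMP2 and 2.45 to 2.98 for BMP2+DM against PBS. For the other 9 members, 103, 105 and 105 of 117 values per comparison kept direction and side of the threshold, 12, 8 and 11 lost their call, 0, 3 and 0 gained one, and 2, 1 and 1 changed sign. The sign changes were of uncalled values. On leaving out 1 library, Itga6 with BMP2 against PBS ran from −0.17 to 0.22 (−0.16 without both repeat-rich libraries), Itga11 with BMP2+DM against BMP2 from −1.41 to 0.95, and Itga1 with BMP2+DM against PBS from −0.15 to 0.012. The number of members called for BMP2 against PBS was 6 to 8 on leaving out 1 library and 2 without both repeat-rich libraries. For BMP2+DM against BMP2 it was 1 to 3 on leaving out 1 library, 1 without both repeat-rich libraries and 5 without a filter on low counts. For BMP2+DM against PBS it was 6 on leaving out any 1 library. Without both repeat-rich libraries, the genes called over the whole table numbered 171 higher and 403 lower, 137 and 176, and 533 and 855, with fewer libraries in the fit; the cause of the member changes was not tested. Of 1053 values of named genes that are not members, 1007 kept direction and side and 43 lost their call. The other 3, of Kcnj8 with BMP2+DM against BMP2, changed sign and were uncalled. Not every named gene was followed in this way, and Thy1, Pdgfra, Des and Mcam were among those left out.

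With the replicate number as a block, 8, 3 and 6 members were called in the 3 comparisons, beside 8, 3 and 7 without it; Itga7 with BMP2+DM against PBS lost its call (−0.19, adjusted p = 0.0514). The shared number does not show that libraries are paired: with 2 libraries per group, the deviations of same-numbered libraries correlated across 14378 genes with r = 0.0248, −0.0227 and −0.0376. The low counts of Itga11, at most 99 reads, limit what can be said of it.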
